A study of Caenorhabditis elegans with 5 samples.

Results

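The transcripts described here are those of 10 genes of the contractile apparatus of muscle and of its basement membrane in the nematode Caenorhabditis elegans: unc-54, myo-3, myo-1, myo-2, unc-15, mlc-1, lev-11, unc-27, unc-22 and unc-52. They were chosen by name, and every probe set (a group of short probes summarised as 1 intensity) that the platform annotation gives to one of these genes alone was taken. That gave 22 of the 20766 probe sets with 1 named gene, for 10 of 17118 genes. Whole wild-type hermaphrodites were measured as young adults aged 3 days on 5 GeneChip arrays, 1 array per group. The exposed groups had spent 24 h at 20 °C without food in a salt medium with benzene, with toluene, with formaldehyde, or with a BTF mix of these 3 compounds. The control worms were not exposed. The same protocol text is attached to them, but no treatment time, so whether they too were kept for that time without food is not stated. Neither concentrations nor the number of worms behind each array were stated.

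Body wall muscle of this worm is built from sarcomeres in which myosin thick filaments slide past actin thin filaments. Tropomyosin and the troponin complex on the thin filament make contraction depend on calcium. Each sarcomere is anchored through integrin complexes to a basement membrane rich in perlecan, the product of unc-52, and from there through the epidermis to the cuticle. The pharynx, which pumps food, has muscle of its own with separate myosin heavy chains. Among the genes described, unc-52 alone stands for the basement membrane, and lev-11 makes tropomyosins of other tissues as well as of muscle.

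With 1 array per group there is no replicate check: no test or error can be had, and every difference is one between single arrays. Intensities were compared as log2(intensity + 16), and a difference of 2-fold, 1 on the log2 scale, served as a fixed rule of size. A probe set passed the level filter if its log2 level, averaged over the arrays, was at or above the 40th percentile of all probe sets with 1 gene (6.13, an intensity of 54.1), which 12460 did, 21 of the 22 among them. In whole-animal RNA, fewer muscle cells and less RNA per muscle cell cannot be told apart. Levels were read against each array's overall brightness. Scaling the arrays on their poly-A spikes would shift the median of all probe sets past the filter by 0.42 with benzene, 0.13 with toluene, 0.12 with formaldehyde and -0.59 with the mix. Where a difference is smaller than such a shift and of opposite sign, its direction turns with that scaling and is not settled. A difference of the same sign as the shift keeps its direction. With that scaling 20 of the 22 probe sets lay above control with benzene, 16 with toluene, 16 with formaldehyde and 1 with the mix, while 12, 12, 14 and 11 did as deposited. The medians of all probe sets past the filter were then 0.41, 0.11, 0.07 and -0.64 in the same order. Member medians stood above these by 0.03, 0.04, 0.18 and 0.05, the same distances as without that scaling. The share of all probe sets above control was not counted. The body wall transcription factor gene hlh-1 was too dim to pass the filter, at 33.8 with benzene, 32.5 with toluene, 30.6 with formaldehyde, 29.03 with the mix and 32.7 in the control.

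As deposited, few muscle probe sets stood far from control, as few of all probe sets did, and those beyond 2-fold came from unc-52. Of the 22 probe sets, 1 was 2-fold away from control with benzene, where 1.3% of all probe sets past the filter were, and 0 with toluene, where 0.185% were. With formaldehyde it was 1 of 22, beside 6.23% of all, and with the mix 0 of 22, beside 6.16%. The benzene probe set was lower, as 0.201% of all were (1.1% were higher), and the formaldehyde probe set was higher, as 4.07% of all were (2.16% were lower). With toluene 0.104% of all were higher and 0.0803% lower, and with the mix 3.87% and 2.3%. Both member probe sets concerned belong to unc-52. The member medians were 0.02 with benzene, 0.03 with toluene, 0.13 with formaldehyde and 0.00 with the mix, against medians of all probe sets past the filter of -0.01, -0.02, -0.05 and -0.05 in the same order. Within 1.5-fold of control were 21 of 22 with benzene, 21 with toluene, 19 with formaldehyde and 20 with the mix. At 1.5-fold, 4.18% of all probe sets past the filter lay beyond the limit with benzene, 2.13% with toluene, 14.1% with formaldehyde and 14.3% with the mix. Over the 5 arrays together, the distance from the lowest to the highest log2 level had a median of 0.38 among the 22 probe sets and of 0.28 among all that passed the filter. It reached 2-fold for 2 of the 22, beside 7.69% of all. The lowest array was benzene for 4 of the 22 (10.7% of all past the filter), toluene for 4 (19.1%), formaldehyde for 2 (23.5%), the mix for 4 (25.4%) and the control for 8 (21.3%). All 4 exposed arrays lay below the control for 4 of the 22, beside 35.4% of all.

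**Figure D1:**
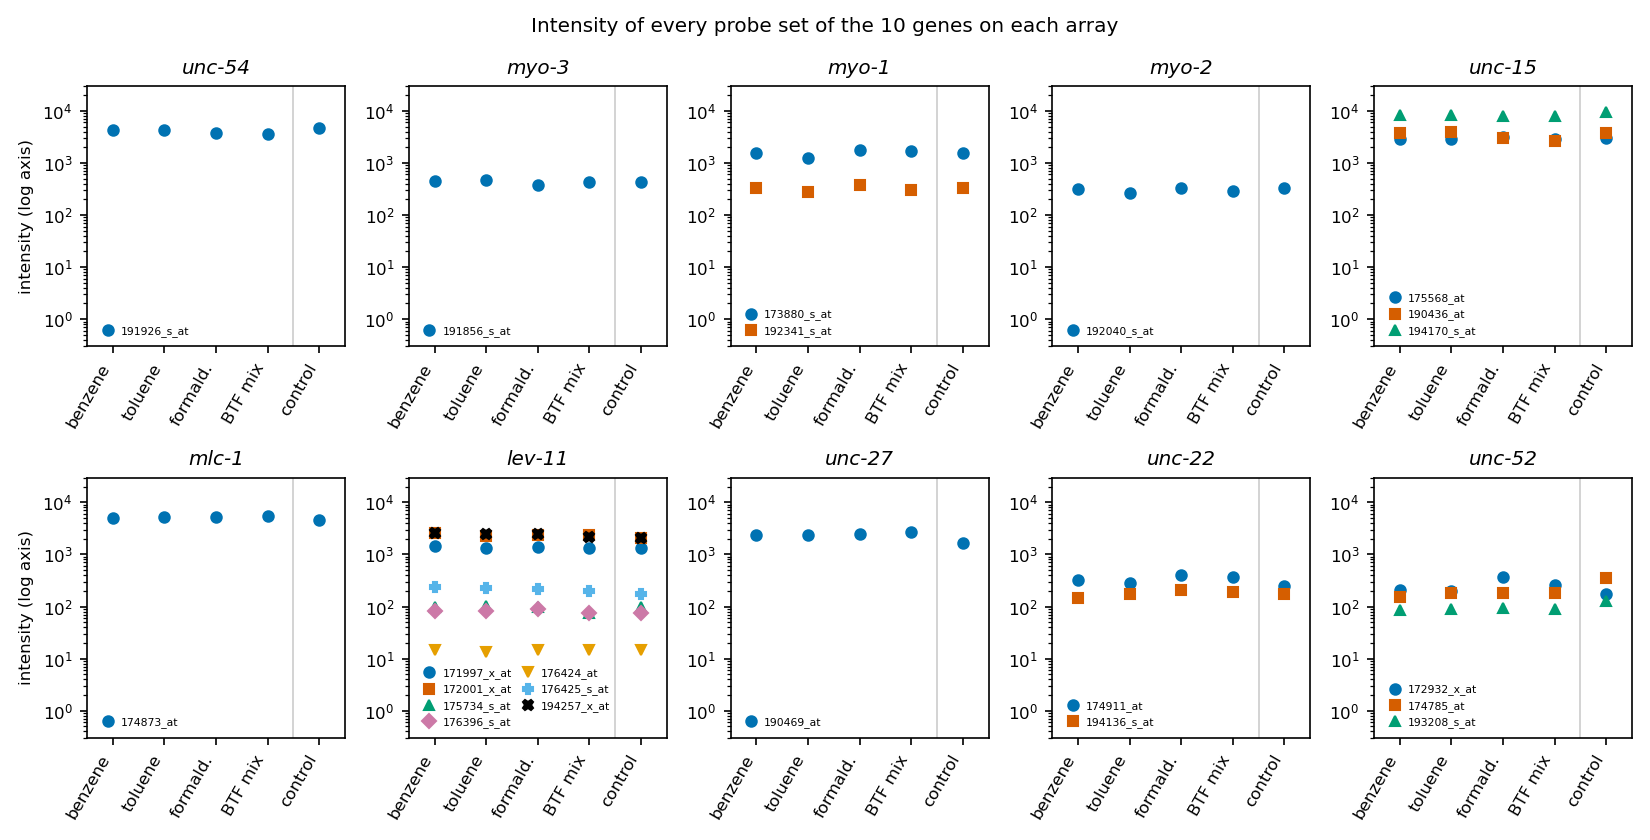
Intensity (log axis) of each of the 22 probe sets on the benzene, toluene, formaldehyde, BTF mix and control arrays, 1 point per array, with 1 panel per gene and no error bars since each group has 1 array. Points of most panels run nearly level, while the control point of unc-52 174785_at, at 356, stands above its 4 exposed points.

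The thick filament genes are described first. unc-54 encodes the main myosin heavy chain of body wall muscle. Its probe set had 4310 with benzene, 4367 with toluene, 3813 with formaldehyde and 3572 with the mix, against 4709 in the control. All exposed arrays lay below the control, by -0.13, -0.11, -0.30 and -0.40 in the same order, and those with formaldehyde lay lowest. With poly-A scaling the benzene and toluene differences turned positive (0.29 and 0.02).

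myo-3 encodes the minor heavy chain, which occupies the centre of the body wall thick filament where assembly begins. It had 442 with benzene, 477 with toluene, 385 with formaldehyde and 427 with the mix, against 430.5 in the control. The exposed arrays lay on both sides of the control, and the 5 arrays spanned 0.30.

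unc-15 encodes paramyosin, the core protein of invertebrate thick filaments, and has 3 probe sets that differ among themselves. Probe set 190436_at had 3706 with benzene, 3870.1 with toluene, 3024 with formaldehyde and 2687 with the mix, against 3802 in the control, with differences of -0.04, 0.03, -0.33 and -0.50. Its order over the arrays was that of unc-54 in having the lowest value with the mix and the next lowest with formaldehyde. Probe set 175568_at stayed between -0.07 and 0.07 of control. The third, 194170_s_at, was below control by -0.19 with benzene, -0.19 with toluene, -0.23 with formaldehyde and -0.21 with the mix, so the formaldehyde and mix difference of unc-15 rests on which probe set is read.

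As deposited, the pharyngeal myosin heavy chain genes myo-1 and myo-2 had their lowest value with toluene. The brighter probe set of myo-1 had 1544 with benzene, 1218 with toluene, 1796 with formaldehyde and 1671 with the mix, against 1577 in the control. Its other probe set had 329 with benzene, 276 with toluene, 370 with formaldehyde and 305 with the mix, against 326 in the control. myo-2 had 320 with benzene, 261 with toluene, 329 with formaldehyde and 286 with the mix, against 324 in the control. Toluene differences were -0.37, -0.23 and -0.30 on these 3 probe sets, all short of 1.5-fold. Toluene was the lowest array for 3 of 3 here and for 19.1% of all probe sets past the filter. With poly-A scaling the mix was lowest on all 3, at -0.51, -0.68 and -0.76, against -0.24, -0.11 and -0.17 with toluene. The 3 probe sets are all of the kind marked s, which can bind transcripts of more than one gene, so they may not be separate measurements.

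mlc-1 encodes a regulatory light chain of muscle myosin. Its own probe set had 5099 with benzene, 5255 with toluene, 5289 with formaldehyde and 5513 with the mix, against 4497 in the control, and the control was the lowest array. The differences were 0.18, 0.22, 0.23 and 0.29, and the last turned to -0.30 with poly-A scaling. A probe set listed for mlc-1 together with mlc-2, its close relative, and therefore not counted among the 22, stayed between -0.07 and 0.07. Another, listed for mlc-1 together with C36E6.11, was above control by 0.42 to 0.46 on the exposed arrays.

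On the thin filament, unc-27 lay further above control than any probe set of lev-11, the other member there. It encodes the main troponin I of body wall muscle, the subunit that holds back contraction until calcium binds. Its probe set had 2326 with benzene, 2329 with toluene, 2497 with formaldehyde and 2672 with the mix, against 1662 in the control. Every exposed array was above the control, by 0.48, 0.48, 0.58 and 0.68, and all stayed under 2-fold. With poly-A scaling these differences were 0.90, 0.61, 0.71 and 0.09, still above control. A control below all 4 exposed arrays was seen for 8 of the 22 member probe sets and for 21.3% of all probe sets past the filter.

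lev-11 encodes tropomyosin, which lies along the actin filament and gates access of myosin. It has 19 transcripts in the RefSeq gene table and 7 probe sets, 6 of them marked s or x. The probe set 194257_x_at had 2627 with benzene, 2416 with toluene, 2495 with formaldehyde and 2166 with the mix, against 2028 in the control. Probe set 172001_x_at had 2530.4 with benzene, 2288 with toluene, 2381 with formaldehyde and 2379 with the mix, against 2050.4 in the control. On both, the control was the lowest array and benzene the highest, with differences of 0.37 and 0.30 with benzene. Benzene was also highest and the control lowest on 176425_s_at, with 240.2 with benzene, 224 with toluene, 221 with formaldehyde and 198 with the mix, against 177 in the control. In all, 4 of 7 lev-11 probe sets were above control on every exposed array, by 0.03 to 0.40 under the deposited scaling, and every one of the 7 was below control with the mix with poly-A scaling. Probe set 175734_s_at instead had its lowest value with the mix, with 74.6 there against 96.6 in the control (-0.31). The one unmarked probe set, 176424_at, lay between 13.6 and 14.7 on all arrays and did not pass the filter.

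unc-22 encodes twitchin, a giant kinase of the thick filament related to titin, whose loss makes the worm twitch. Its unmarked probe set, 174911_at, had 326 with benzene, 280 with toluene, 408 with formaldehyde and 369 with the mix, against 244 in the control. The control was lowest and formaldehyde highest, with differences of 0.40, 0.19, 0.70 and 0.57 (-0.02 for the mix with poly-A scaling). The other probe set, 194136_s_at, had 145 with benzene, 170 with toluene, 211 with formaldehyde and 186 with the mix, against 173 in the control. There benzene was lowest, at -0.23, while formaldehyde was again highest, at 0.27. Both probe sets thus placed formaldehyde above the other arrays and disagreed on the side of control for benzene and toluene.

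unc-52 encodes perlecan, the large heparan sulphate proteoglycan of the muscle basement membrane, to which the integrins of the sarcomere attach. Its 3 probe sets gave opposite pictures. On 174785_at the intensity was 152 with benzene, 182 with toluene, 183 with formaldehyde and 183 with the mix, against 356 in the control. The control was high and all exposed arrays were low, by -1.15, -0.91, -0.90 and -0.90, so that benzene alone passed 2-fold. The formaldehyde and mix arrays carried the same value here to all deposited digits.

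Probe set 193208_s_at went the same way by less. It had 87.2 with benzene, 89.7 with toluene, 94.5 with formaldehyde and 90.9 with the mix, against 126.7 in the control, which is -0.47, -0.43, -0.37 and -0.42. Probe set 172932_x_at went the opposite way. It had 209 with benzene, 199 with toluene, 375 with formaldehyde and 262 with the mix, against 171 in the control, and every exposed array was above the control, by 0.27, 0.20, 1.06 and 0.57. With poly-A scaling its mix difference became -0.02. A further probe set, 194141_at, is listed for unc-52 under 2 gene identifiers and was not counted. It had 77.4 with benzene, 65.1 with toluene, 89.5 with formaldehyde and 82.3 with the mix, against 77.4 in the control, and stayed within 0.20 of control on either side.

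The gap between the highest and lowest probe set of unc-52, in difference from control, was 1.41 with benzene, 1.11 with toluene, 1.96 with formaldehyde and 1.47 with the mix. A constant shift of a whole array on the log2 scale leaves this gap as it is. Of 2153 genes with several probe sets past the filter, 0.325% had a gap of 2-fold or more with benzene and 2.74% with formaldehyde. The median gap over those genes was 0.14 with benzene and 0.14 with formaldehyde. unc-52 was known to disagree when it was chosen, so these shares are a description. Among the other members with several probe sets the formaldehyde gap was 0.01 for myo-1, 0.30 for lev-11, 0.40 for unc-15 and 0.44 for unc-22. unc-52 has 17 transcripts in the RefSeq gene table, which is given here without the places of the probe sets on them, so which transcripts each probe set reads was not tested.

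**Figure D2:**
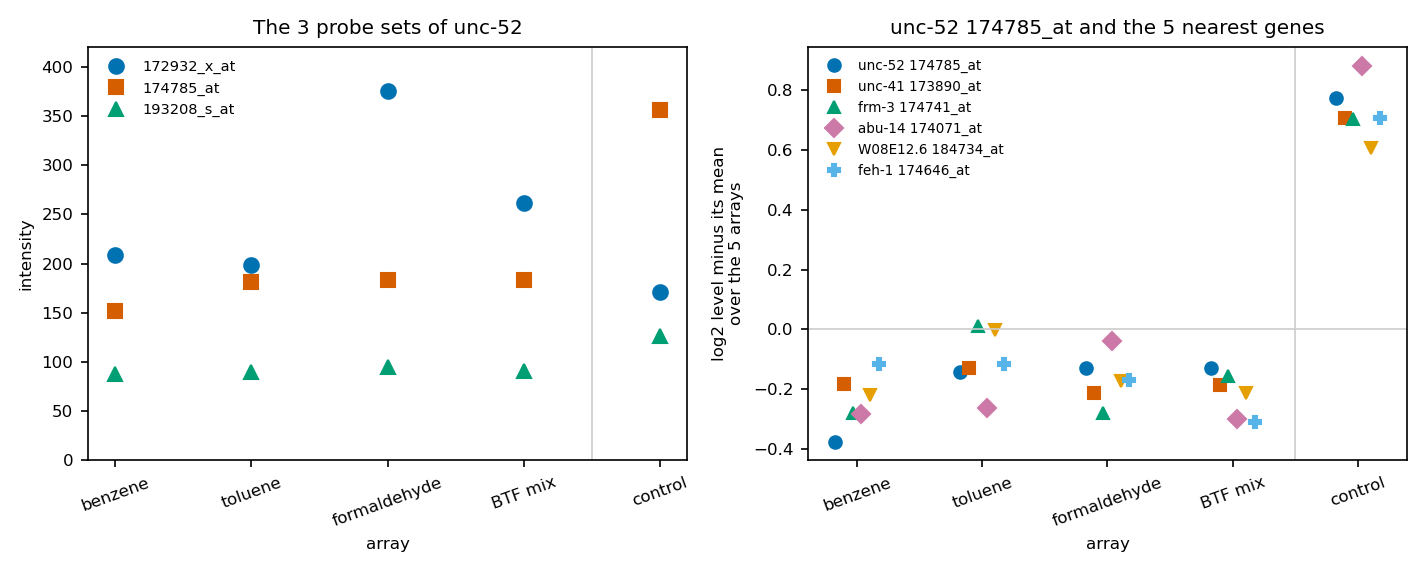
Left: intensity (linear axis from 0) of the 3 unc-52 probe sets on each of the 5 arrays. Right: log2 level minus its own mean over the 5 arrays for unc-52 174785_at and the 5 genes nearest to it. On the left, 174785_at is highest in the control, at 356, while 172932_x_at is highest with formaldehyde, at 375. On the right, each gene is highest in the control array.

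The 5 genes nearest to unc-52 174785_at over the 5 arrays, by the Euclidean distance of centred log2 levels, were unc-41 (0.23), frm-3 (0.25), abu-14 (0.27), W08E12.6 (0.28) and feh-1 (0.33). unc-41, which encodes a stonin-like protein of synaptic vesicle recycling, had 116 with benzene, 121 with toluene, 114 with formaldehyde and 116 with the mix, against 229 in the control. abu-14, of a family named for activation when the unfolded protein response is blocked, had 566 with benzene, 574 with toluene, 674 with formaldehyde and 559 with the mix, against 1286 in the control. In each of the 5 the control array stood above all exposed arrays, and since they were found by likeness to unc-52 this is a description.

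Because the labelling reaction primes at the 3' end of transcripts, ratios of 3' to 5' probe sets of control transcripts were read on each array. For actin, log2 of 3' over 5' was 1.74 with benzene, 1.90 with toluene, 1.72 with formaldehyde and 1.95 with the mix, against 2.30 in the control. The control array thus had the steepest ratio for actin. For GAPDH, the ratio was 1.27 with benzene, 1.35 with toluene, 1.46 with formaldehyde and 1.76 with the mix, against 1.60 in the control, and the mix was steepest. For ubiquitin it lay between 4.91 and 5.14 and for catalase between 3.95 and 4.45, again highest with the mix. Of the 4 poly-A spikes, thr also had its highest ratio in the control, at 1.28, against 1.15 to 1.22 in the exposed arrays. The control was not the highest array for dap, lys or phe, and dap had 2.14, 2.18, 2.06 and 1.95 with benzene, toluene, formaldehyde and the mix, against 1.99 in the control. Actin is a thin filament protein itself, and its 5' probe set stood at 0.67, 0.49, 0.68 and 0.46 over control while its 3' probe set stood at 0.12, 0.09, 0.10 and 0.11, in the order benzene, toluene, formaldehyde, mix. The part of these ratios in the unc-27, unc-22 and unc-52 differences was not tested.

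**Figure D3:**
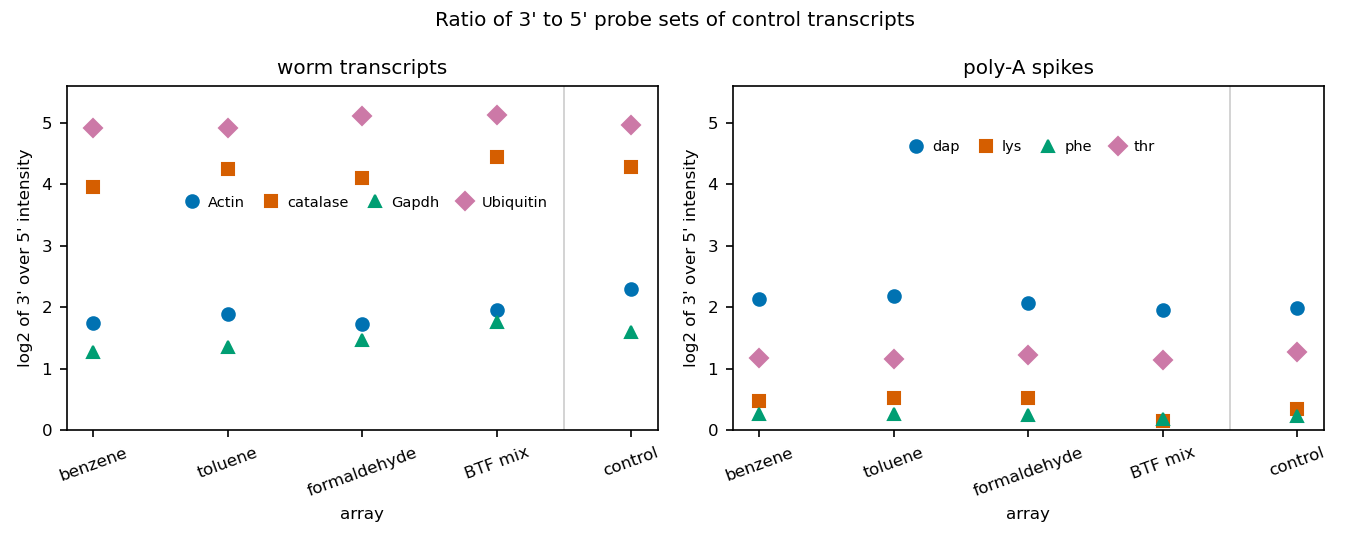
Log2 of the intensity of the 3' over the 5' probe set for 4 worm transcripts (left) and 4 poly-A spikes (right) on each of the 5 arrays, 1 point per array. For actin the control array is highest, at 2.30, and among the spikes it is highest for thr, at 1.28.

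Further genes of the muscle were read from lists, with 1 probe set per gene (that with the highest mean). Of 11 genes of the thick filament and its assembly, 0 were 2-fold away in any exposure, beside 4.62% of all genes past the filter higher and 2.32% lower with formaldehyde. Shares with benzene were 1.23% higher and 0.181% lower, with toluene 0.11% and 0.1%, and with the mix 4.42% and 2.36%. The thick filament medians were -0.03 with benzene, -0.08 with toluene, -0.15 with formaldehyde and -0.13 with the mix. unc-82, which encodes a kinase needed to organise thick filaments, had 580.2 with benzene, 638 with toluene, 486 with formaldehyde and 516 with the mix, against 664 in the control. mlc-3, an essential light chain gene, was above control by 0.15, 0.17, 0.22 and 0.31 in the same order on its brighter probe set, like mlc-1. Its other probe set was at 0.08, 0.28, 0.06 and 0.03.

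Of 18 measured thin filament genes, 0 were 2-fold away, and the medians were positive, at 0.10 with benzene, 0.11 with toluene, 0.17 with formaldehyde and 0.12 with the mix (-0.47 with the mix with poly-A scaling). As deposited, 9 of these were above control on all 4 exposed arrays and 0 below on all 4. Of all genes past the filter, 22.3% were above on all and 35.5% below. Among the 10 troponin genes, 6 were above on all 4 as deposited. pat-10, the troponin C gene of body wall muscle, had 5797 with benzene, 5555 with toluene, 6299.9 with formaldehyde and 5886 with the mix, against 4077 in the control. mup-2, a troponin T gene of body wall muscle, had 2391 with benzene, 2047 with toluene, 3163 with formaldehyde and 3201 with the mix, against 1781 in the control. The control was the lowest array for both, as for unc-27. With poly-A scaling the mix difference of pat-10 became -0.06. Of the 18 genes only mup-2, at 0.25, and unc-27, at 0.09, then lay above control with the mix. The counts of 9 and 6 thus hold for the deposited scaling only. Other troponin genes had another order: tni-3 was lowest with formaldehyde, at -0.29, and tnt-3 and tni-1 were lowest with benzene, at -0.17 and -0.10. unc-94, a tropomodulin gene, was at 0.00, -0.16, -0.15 and -0.39. tnt-4, a troponin T gene of the pharynx, had 374 with benzene, 313 with toluene, 515 with formaldehyde and 476 with the mix, against 398 in the control. As deposited, toluene was its lowest array, as for myo-1 and myo-2. These were 3 of the 9 measured pharyngeal muscle genes, and toluene was the lowest array for no other of them. With toluene pha-4 was at 0.26, tni-4 at 0.16, marg-1 at 0.09 and tnc-2 at 0.03. With poly-A scaling the mix was lowest for tnt-4, at -0.34, against -0.21 with toluene.

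**Figure D4:**
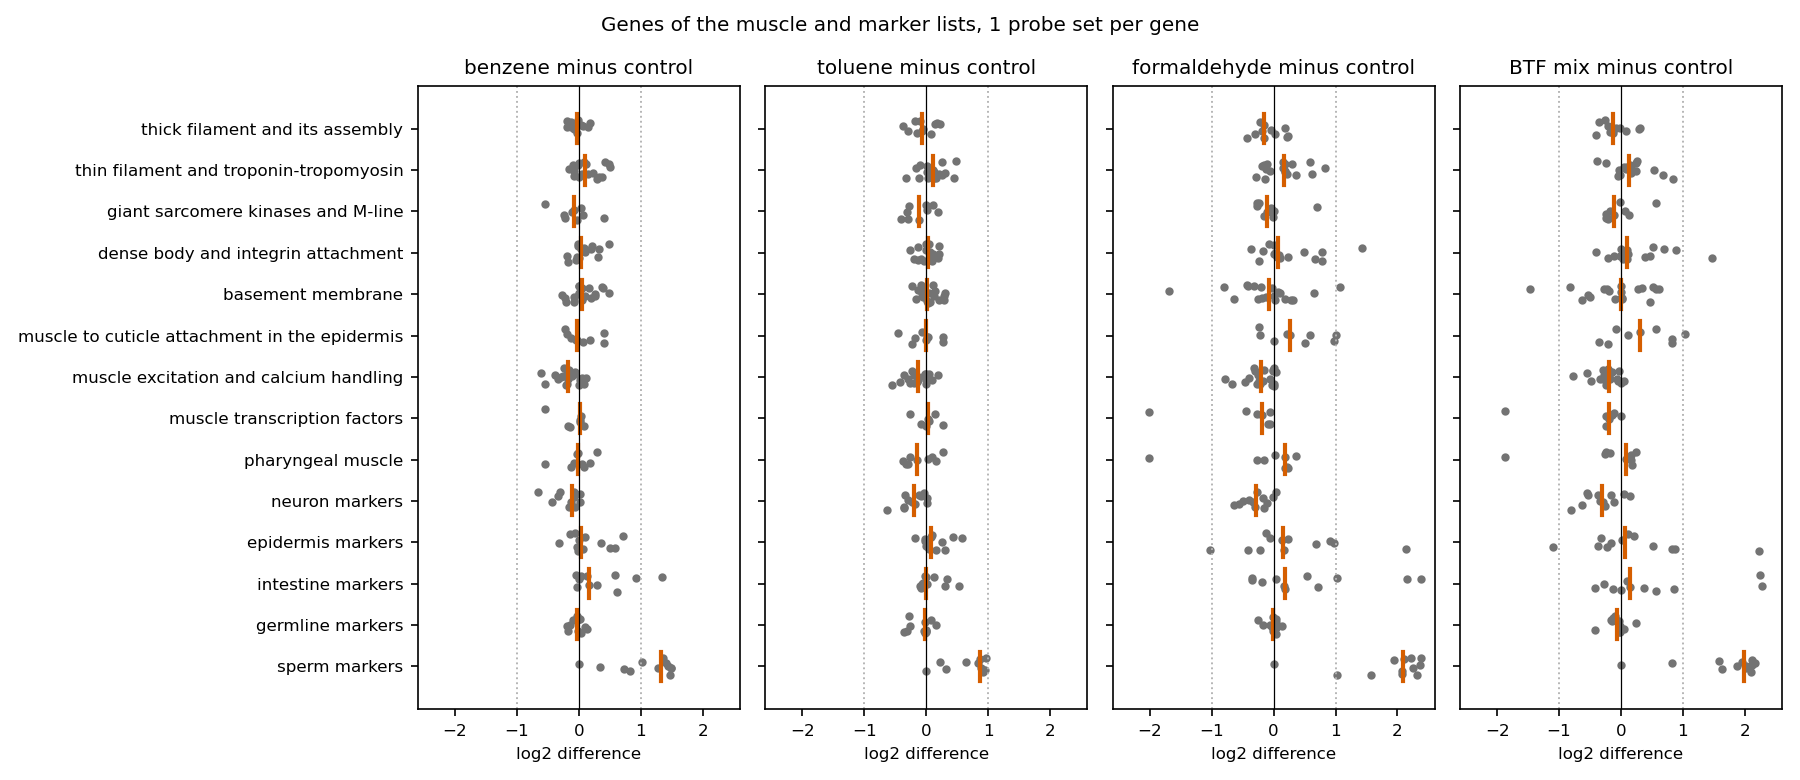
Log2 difference from control for each gene of 14 lists (points, spread vertically at random) in the 4 exposures (panels), with the list median as an orange bar and dotted lines at 2-fold. Thick and thin filament genes all lie within the dotted lines, and most sperm marker genes lie beyond them with benzene, formaldehyde and the mix.

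Of 9 genes of giant kinases and the M-line 0 were 2-fold away, with medians of -0.08, -0.11, -0.11 and -0.11 with benzene, toluene, formaldehyde and the mix. ttn-1, a second titin-like gene, had 458 with benzene, 509 with toluene, 609 with formaldehyde and 627 with the mix, against 678 in the control, an order unlike that of unc-22. unc-89, the obscurin gene, was at -0.08, -0.29, 0.01 and 0.13 on its brightest probe set and at 0.13, -0.05, 0.49 and 0.55 on the next brightest. lim-9, an M-line LIM protein gene, lay between -0.30 and -0.22 on its brightest probe set. Of its others past the filter, 193324_at lay between -0.34 and -0.16 and 193411_s_at between -0.30 and 0.06. Probe set 181484_s_at was at -0.08 with benzene and 0.00 on the other exposed arrays.

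Among 16 measured genes of dense bodies and integrin attachment, 0 were 2-fold lower. With formaldehyde 1 was 2-fold higher (4.62% of all genes past the filter) and with the mix 1 (4.42%), in both cases unc-23. unc-23, which encodes a BAG domain co-chaperone needed to keep muscle attached, had 363 with benzene, 219 with toluene, 707 with formaldehyde and 730 with the mix, against 253 in the control. Its second probe set had 220 with benzene, 123 with toluene, 476 with formaldehyde and 542 with the mix, against 129 in the control, which is the same order of arrays. dim-1, an immunoglobulin repeat gene of muscle attachment, was higher by 0.33, 0.20, 0.78 and 0.88 on its brighter probe set and by 0.81, 0.57, 1.41 and 1.41 on the other. alp-1, of the Enigma family, was at 0.79 with formaldehyde and 0.69 with the mix, and atn-1, alpha-actinin, at 0.67 and 0.46. On all 4 exposed arrays 5 of the 16 were above control, beside 22.3% of all genes past the filter. Below on all 4 were 2, beside 35.5%. These were cpna-1 (-0.19, -0.13, -0.36 and -0.40) and pat-2 (-0.17, -0.08, -0.17 and -0.11). The integrin gene pat-3 stayed between -0.04 and 0.11, and the vinculin gene deb-1 between -0.02 and 0.08. Neither gene was named by the rule, and both were picked after their values were seen.

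Of 20 basement membrane genes, with formaldehyde 1 was 2-fold higher (unc-52) and 1 lower (lam-3), beside 4.62% and 2.32% of all genes past the filter. With the mix it was 0 and 1 (lam-3 again), beside 4.42% and 2.36%. The unc-52 probe set read here, 172932_x_at, was brightest by a mean that includes its formaldehyde value of 375. In the control it had 171, against 356 on 174785_at, which was at -0.90 with formaldehyde. lam-3, a laminin alpha chain gene, had 165 with benzene, 187 with toluene, 49.7 with formaldehyde and 60.5 with the mix, against 195 in the control. Its other probe set, at 21.0 to 28.7, did not pass the filter. sdn-1, the syndecan gene, was at -0.79 with formaldehyde and -0.83 with the mix (-0.39 and -0.23 on its dimmer probe set), and nid-1, nidogen, at 0.65 and 0.61. The list medians were 0.05, 0.01, -0.08 and 0.00 with benzene, toluene, formaldehyde and the mix. The type IV collagen genes emb-9 and let-2, also picked after their values were seen, stayed between -0.19 and 0.10.

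Of 9 measured epidermal genes that link muscle to the cuticle, 0 were 2-fold lower. With formaldehyde 1 was 2-fold higher (4.62% of all genes past the filter), and with the mix 1 (4.42%). This was mup-4, a transmembrane protein gene of the fibrous organelles, with 230 with benzene, 172 with toluene, 359 with formaldehyde and 365 with the mix, against 171 in the control. The related mua-3 stood at 0.40, 0.28, 0.59 and 0.83, the intermediate filament genes mua-6 at 0.18, 0.28, 0.97 and 0.83 and ifb-1 at 0.06, -0.08, 0.50 and 0.57. On all 4 exposed arrays 3 of the 9 were above control, beside 22.3% of all genes past the filter. Below on all 4 was 1, beside 35.5%, namely let-805 at -0.22, -0.23, -0.22 and -0.35. vab-10 was at -0.19, -0.46, 0.27 and 0.31. The list medians were -0.02 with benzene, 0.00 with toluene, 0.27 with formaldehyde and 0.31 with the mix. With poly-A scaling the mix median was -0.28, against -0.63 for all genes past the filter.

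As deposited, genes of excitation and calcium handling lay mostly below control. Of 20, 12 were below on all 4 exposed arrays and 0 above on all, where 35.5% of all genes past the filter were below and 22.3% above. None of them was 2-fold away. Only 12 of the 20 passed the filter. Medians were -0.18 with benzene, -0.14 with toluene, -0.20 with formaldehyde and -0.19 with the mix, and the benzene median was 0.24 with poly-A scaling. egl-19, the L-type calcium channel gene of muscle, had 140 with benzene, 159 with toluene, 122 with formaldehyde and 123 with the mix, against 220.5 in the control. lev-10, needed to cluster acetylcholine receptors, had 270 with benzene, 270 with toluene, 249 with formaldehyde and 270 with the mix, against 404 in the control. The inositol trisphosphate receptor gene itr-1 was at -0.16, -0.37, -0.47 and -0.48 and the potassium channel gene slo-1, below the filter, at -0.26, -0.26, -0.39 and -0.29. Several of these genes are used by neurons too. Of 12 neuron markers 9 were below control on all 4 exposed arrays as deposited, beside the same 35.5%. The neuron list medians were -0.11, -0.20, -0.29 and -0.31. With poly-A scaling the benzene median was 0.31, against 0.41 for all genes past the filter, so its direction is not settled. The summed intensity of the neuron list was 7801 with benzene, 7685 with toluene, 6897 with formaldehyde and 6685 with the mix, against 8599 in the control. Its lowest members were rab-3 (-0.67, -0.64, -0.64 and -0.80), unc-18, egl-3 and sbt-1, the last 3 at -0.56, -0.64 and -0.53 with the mix. The dimmer probe sets of rab-3 (-0.27, -0.31, -0.23 and -0.46) and unc-18 (0.04, 0.00, -0.04 and 0.00) lay nearer control. That of egl-3 was at -0.66 with the mix. Above control with the mix were 2 of the 12, unc-64 at 0.15 and unc-119 at 0.04. The part of neurons in the muscle values was not tested.

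Of 7 muscle transcription factor genes, 1 was 2-fold lower with formaldehyde (2.32% of all genes past the filter) and with the mix (2.36%). This was ceh-22, an NK-2 family homeobox gene that helps switch on pharyngeal myosin. It had 118.6 with benzene, 149 with toluene, 33.02 with formaldehyde and 37.8 with the mix, against 182 in the control. Its other probe set, below the filter, was at -0.60 with formaldehyde and -0.62 with the mix. On the same arrays myo-2 was at 0.02 and -0.17. pha-4, the pharyngeal organ identity gene, was at 0.09, 0.26, -0.26 and -0.25, unc-120, a serum response factor gene of body wall muscle, at -0.17, 0.05, -0.44 and -0.25, and mls-1, below the filter, between -0.20 and -0.08. The 9 measured pharyngeal muscle genes had medians of -0.02, -0.15, 0.19 and 0.08, with ceh-22 the 1 gene 2-fold away.

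Markers of other tissues differed from control by unequal amounts on the same arrays. Sperm markers had medians of 1.32 with benzene, 0.87 with toluene, 2.09 with formaldehyde and 1.99 with the mix. Of the 12 sperm markers 8, 0, 11 and 10 were 2-fold higher, beside 1.23%, 0.11%, 4.62% and 4.42% of all genes past the filter. Their summed intensity was 22669 with benzene, 15956 with toluene, 39242 with formaldehyde and 35078 with the mix, against 8503 in the control. msp-33 stood at 2.39, msp-142 at 2.36, msp-3 at 2.32 and msp-31 at 2.25 with formaldehyde, on probe sets that can bind several near-identical transcripts. Intestine markers had medians of 0.16, -0.01, 0.18 and 0.15, with act-5, the actin gene of the intestinal brush border, at 1.35, 0.31, 2.38 and 2.25 and pho-1 at 0.93, -0.08, 2.15 and 2.28. cpr-1, a protease gene, was at 1.03 and ifb-2, an intermediate filament gene, at 0.71 with formaldehyde. Other intestine markers lay below control there, with elt-7 at -0.35, vit-2 at -0.35 and vit-6 at -0.18, and vit-2 and vit-6 were below on all 4 exposed arrays. Epidermis markers had medians of 0.03, 0.08, 0.16 and 0.06, with grd-10 at 2.14 and nhr-25 at -1.03 with formaldehyde and the collagens rol-6 and dpy-13 at 0.98 and 0.91. Above control on all 4 exposed arrays were 6 of these 12, beside 22.3% of all genes past the filter. Below on all 4 were 3, beside 35.5%. These were the collagen dpy-7, lin-26 and mlt-10, at -0.12, -0.41 and -0.22 with formaldehyde. Germline markers had medians of -0.02, -0.02, -0.01 and -0.06, with pgl-1 at -0.42 with the mix and mex-5, oma-1 and oma-2 at -0.35, -0.31 and -0.27 with toluene. On the other side, glh-2 was above control on all 4 exposed arrays, by 0.04 to 0.15, and glh-1 was at 0.24 with the mix. The part of these tissues in the muscle values was not tested.

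Arrays were also compared without the control, as deposited. Benzene minus toluene lay between -0.23 and 0.34 for the 22 probe sets, with a median of 0.02 beside 0.00 for all past the filter, and 0 were 2-fold apart. The mix minus formaldehyde lay between -0.49 and 0.14, with a median of -0.12 beside 0.00, and 0 were 2-fold apart. The lowest was unc-52 172932_x_at, with 262 with the mix against 375 with formaldehyde. Formaldehyde minus benzene lay between -0.29 and 0.80, with a median of 0.05 beside -0.02, and again 0 were 2-fold apart. Its highest was the same unc-52 probe set, with 375 with formaldehyde against 209 with benzene. For these pairs the share of all probe sets 2-fold apart was not counted. Over the 4 exposed arrays together, 0 of the 22 probe sets spanned 2-fold, beside 5.28% of all past the filter. As deposited, each 2-fold difference among the 22 thus involved the control array. With poly-A scaling this did not hold: unc-54 then stood at 0.29 from control with benzene and at -0.99 with the mix.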

How the data were processed

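Total RNA of whole worms was labelled from 300 ng with a 3' IVT kit, per the labels' protocols. The deposited values are probe set intensities on a linear scale. Per the submitters' processing notes, RMA, Affymetrix Expression Console 1.1 and MAS5 were used, and which of them gave the values is not stated. Identical values on different arrays were found for 47.2% of all 22625 probe sets and for 5 of the 22 members. The number of arrays limits the precision. Array medians lay between 82.3 and 84.8.

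Genes came from the platform annotation, checked through the Entrez identifier in the RefSeq table (WBcel235). Probe sets with several genes (887) or with none (972, among them the 77 control probe sets) stayed out of counts. Python 3.11.15 with pandas 2.3.3 was used. Differences are of log2(intensity + 16), and no test could be run with 1 array per group. Steps were tested on simulated data.

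All member genes and all their probe sets are named. For each of 14 lists, up to 4 genes furthest from control on any exposed array were named, plus every 2-fold gene where there were 6 or fewer, and 5 genes by likeness to the widest-ranging member. Outside that rule, tni-1, tni-3, tni-4, tnt-3, tnc-2, marg-1, elt-7, vit-2, vit-6, glh-1, glh-2, pat-3, deb-1, emb-9, let-2 and hlh-1 were named after their values were seen. So were unc-64, unc-119, cpna-1, pat-2, let-805, vab-10, dpy-7, lin-26 and mlt-10. The members and lists were chosen with earlier results of these data known. Alternatives were pseudocounts of 1 and 64, median centring, quantile normalization, poly-A spike scaling, no s or x probe sets, 1 probe set per gene, a 1.5-fold threshold, no filter, a filter at the 60th percentile, and ranges without the control.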

Additional observations from a re-analysis of the deposited data

How the results depend on the processing

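No paired analysis was possible because each group has 1 array. Counts of member probe sets 2-fold away and member medians kept their values within the limits set (1.5 times for counts, 0.1 for medians) with a pseudocount of 1, median centring, quantile normalization, no filter and the 60th percentile filter. With a pseudocount of 64, the counts with benzene and with formaldehyde and the count of ranges of 2-fold were each 0, since that constant shrinks differences of dim probe sets. Poly-A spike scaling gave 0 with benzene and 3 with the mix (13.2% of all), 16 ranges of 2-fold (68.3% of all), and medians of 0.44, 0.15, 0.25 and -0.59 with benzene, toluene, formaldehyde and the mix, against 0.41, 0.11, 0.07 and -0.64 for all probe sets past the filter. The 3 with the mix were unc-15 190436_at (-1.09) and the unc-52 probe sets 174785_at (-1.49) and 193208_s_at (-1.01). Without s and x probe sets the count with formaldehyde was 0. With 1 probe set per gene the count with benzene was 0 and the toluene median 0.16. At 1.5-fold the counts were 1 with toluene, 3 with formaldehyde and 2 with the mix. Without the control array 0 ranges reached 2-fold, beside 5.28% of all. The choice of probe set turns the sign for unc-52. On 172932_x_at, its brightest by the mean over the 5 arrays, it was at 1.06 with formaldehyde and 0.27 with benzene. On 174785_at, its 1 probe set not marked s or x, it was at -0.90 with formaldehyde and -1.15 with benzene. Intensities near those of 176424_at limit what can be read, since the pseudocount then exceeds the signal.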
